A study of Mus musculus with 2 samples.

Results

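The signalling chain of the T cell receptor is described here in a mouse B cell lymphoma line, CH12.LX, through 10 genes of the 42462 that could be named: Lck, Cd2, Cd3d, Cd3e, Cd3g, Cd247, Lat, Zap70, Themis and Bcl11b. They were chosen by symbol, with their levels in these libraries already known, so the levels are given as a description and were not tested against other genes. The 10 symbols were matched to Ensembl identifiers in both gene tables, and all 10 were found.

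Polyadenylated RNA was sequenced from 1 end in 2 libraries, which the labels give as biological replicates 1 and 2 from separate biosamples. The cells are an immortalized line of strain B10.H-2aH-4bp/Wts, a single line with no treatment, no time course and no second genotype. The libraries therefore form 1 group, and the comparison that can be made is between the libraries. Levels are given in TPM, a length-corrected share of transcripts scaled to the same total in each library. Detection required at least 1 TPM in each of the 2 libraries.

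In a T cell, the receptor chains that bind antigen have no signalling tails of their own and are carried by the CD3 chains and the zeta chain. The kinase Lck phosphorylates those tails, Zap70 docks on them and phosphorylates the adaptor Lat, and Lat gathers the proteins that raise calcium and activate Ras. B cells use a parallel chain with Cd79a, Cd79b, Syk and Blnk, and mouse B cells, too, carry Cd2 on their surface.

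The libraries held 22986654 and 25701469 expected counts on named genes. The B cell label was matched by its markers, with 9 of 9 measured B cell markers detected at a median of 193 TPM. For scale, 48.0% of all protein-coding genes were detected. The label gives the sex as female, whereas the Y-linked genes Ddx3y, Eif2s3y, Kdm5d and Uty lay between 5.42 and 63.65 TPM over both libraries and Xist had 1 and 0 counts. None of the 10 measured T cell receptor constant region, recombinase and pre-T alpha genes was detected, and 6 of them had 0 counts in both libraries. Of 9 natural killer cell markers only Fcer1g was detected (27.56 and 37.66 TPM), 6 stood at 0, and the list summed to 28.03 and 38.11 TPM. Of 10 myeloid markers 3 were detected, Cd68 (181.8 and 252.89 TPM), Itgam (1.79 and 1.24) and Adgre1 (1.64 and 1.34). Csf1r had 49.58 and 55.89 counts (0.65 and 0.66 TPM) and Lyz2 had 1 and 2, while Cd14, S100a8, S100a9, Mpo and Elane had 0 counts in both libraries. The myeloid list summed to 185.93 and 256.22 TPM. The part of other cell types in the levels below was not tested, and in bulk RNA a few cells with much of a transcript cannot be told apart from many cells with little.

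The members fell into an abundant pair and a group near or below detection. Lck and Cd2 were expressed, Cd3g and Cd3d lay just above 1 TPM, and Cd247, Lat, Zap70 and Cd3e lay below 1 TPM in at least 1 library. Themis and Bcl11b had no read. Thus 4 of the 10 members were detected, against 48.0% of the 21474 protein-coding genes, a share given for scale since the members were chosen with their levels known. Just inside the threshold was Cd3d, at 1.14 TPM in its lower library, and just outside was Cd247, at 0.91. At 0.5 TPM the count was 6 of 10, against 51.0% of protein-coding genes, and at 5 TPM it was 2 of 10, against 39.2%.

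**Figure D1:**
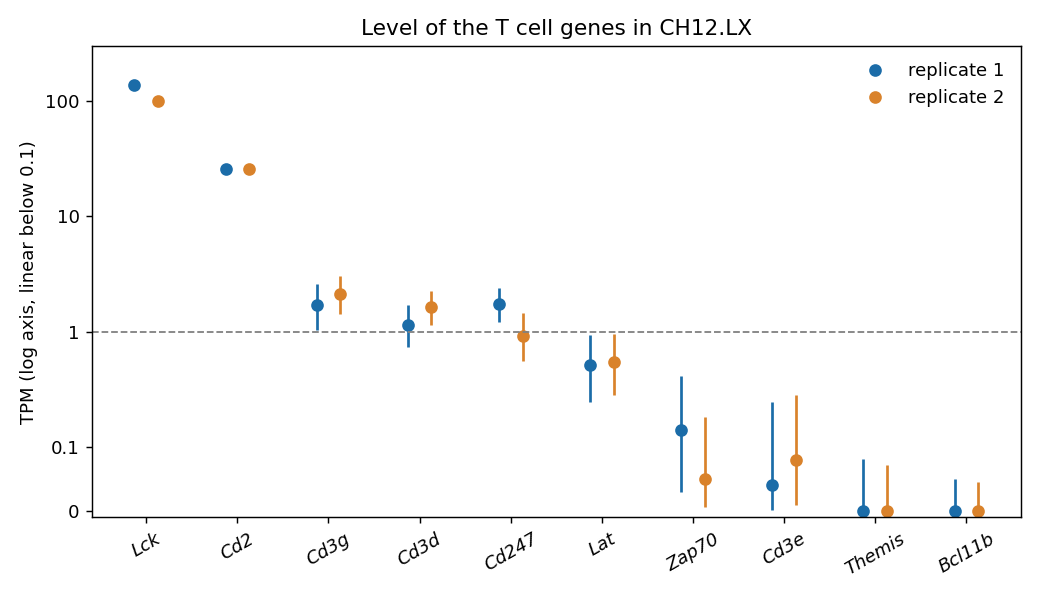
Level of each of the 10 genes in TPM (vertical log axis, linear below 0.1), with a point per replicate, the exact Poisson 95% interval of its count as a vertical line, and a dashed line at 1 TPM. Lck (136.36 and 100.34 TPM) and Cd2 (25.61 and 25.74) stand apart from the other 8, and Themis and Bcl11b are at 0.

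By the mean of the libraries the order was Lck, Cd2, Cd3g, Cd3d, Cd247, Lat, Zap70, Cd3e, and then Themis and Bcl11b at 0. Exact Poisson 95% intervals, which cover counting error only, did not overlap between Lck and Cd2 or between Cd2 and Cd3g in either replicate. The intervals of Cd3g and Cd3d, of Cd3d and Cd247, of Zap70 and Cd3e, and of Cd3e and Themis overlapped in both replicates, so those neighbours could not be ordered. Cd247 and Lat, and Lat and Zap70, overlapped in 1 replicate.

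Lck, the Src family kinase that starts signalling at the T cell receptor, was the highest member. It stood at 136.36 TPM in replicate 1 and 100.34 in replicate 2, from 2512 and 2496 expected counts (118 ± 25.5 TPM, SD, n = 2). The Poisson 95% intervals, 131 to 142 and 96.4 to 104 TPM, did not overlap. They take the effective length of the gene in each library as known, and so leave out the error of dividing reads among transcripts. Lck ranked 1045 and 1381 among protein-coding genes, and 94.4% of these lay below its mean. The gene lies on chromosome 4 from 129548344 to 129573641 on the minus strand of mm10.

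Lck has 2 known start regions, a distal and a proximal one, of which the proximal is known for its use in thymocytes and the distal in mature T cells as well. In the annotation the distal start of Lck-202 lies at 129573641 and the proximal start of Lck-208 at 129558372, 15269 bases apart. Lck-202 splices its distal first exon to an exon whose sequence, with the start codon, the proximal coding transcripts also hold. In Lck-201 that sequence is the end of one unbroken first exon. The 15 bases on each side of its beginning are shown because Lck-202 and Lck-201 part there, with the bases before it in capitals and the shared sequence in lower case:
Lck-202, distal: TCCCAGGCTGGGCAGggatcatgggctgtg
Lck-201, proximal: TCTACATTCCTTCAGggatcatgggctgtg
Lck-201 and Lck-208 differ in that the first exon of Lck-201 keeps a 97-base segment (129558191 to 129558287) that is spliced out of Lck-208. The capitals of Lck-201 lie in that segment, so they mark Lck-201 and not every transcript of the proximal start.

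The 250 bases before each start are shown next, since the levels below are divided between them. Both are RefSeq sequence on GRCm38.p6, read 5′ to 3′ on the minus strand, with matches to the searched motifs in capitals:
Lck distal, chr4:129573642-129573891: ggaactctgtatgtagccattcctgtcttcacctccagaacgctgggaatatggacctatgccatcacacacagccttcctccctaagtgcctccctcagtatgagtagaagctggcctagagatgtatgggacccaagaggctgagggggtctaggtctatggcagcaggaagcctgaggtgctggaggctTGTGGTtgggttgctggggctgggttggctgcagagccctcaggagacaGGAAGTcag
Lck proximal, chr4:129558373-129558622: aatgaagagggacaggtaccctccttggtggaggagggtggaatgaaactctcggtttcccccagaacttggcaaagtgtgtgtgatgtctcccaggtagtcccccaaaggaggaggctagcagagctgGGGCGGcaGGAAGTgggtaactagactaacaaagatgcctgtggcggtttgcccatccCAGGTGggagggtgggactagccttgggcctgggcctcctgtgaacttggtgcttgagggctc
The motifs, searched on both strands except the last, were TGTGGT (Runx), GGAAGT (Ets), CAGGTG (an E-box), ATGCAAAT (the octamer), GGGCGG (Sp1) and TATAAA on the gene's strand (TATA). Over 32536 promoter windows of this length they occurred in 14.0%, 19.8%, 17.3%, 1.62%, 33.0% and 7.55%, and none of the motifs contains another. The distal window held 1 Runx and 1 Ets match. The proximal window held 1 Ets, 1 E-box and 1 Sp1 match. It was set on the start of Lck-208. Lck-201 begins further upstream, at 129558391, so the last bases of the proximal window lie in the first exon of Lck-201. The distal window had 56.4% GC and 1 CpG, and the proximal 58% GC and 3 CpG, against medians of 52.4% and 6 over all windows.

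**Figure D2:**
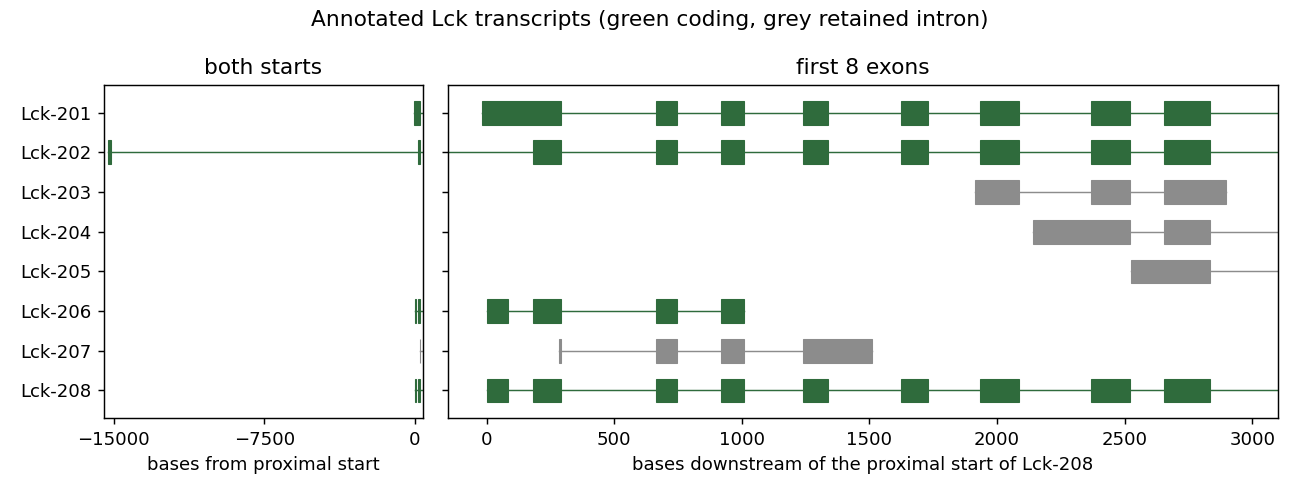
Map of the Lck transcripts, drawn to scale in bases from the proximal start of Lck-208, with both starts in the left panel and the first 8 exons of Lck-201 in the right panel. Coding transcripts are green and retained-intron transcripts grey, and Lck-202 is the transcript that begins at the distal start, 15269 bases upstream.

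Most coding Lck transcript was assigned to the proximal start in both libraries. Coding transcripts from the proximal start held 1608.93 expected counts in replicate 1 and 1858.61 in replicate 2, and Lck-202 from the distal start held 249.39 and 223.39. The distal start thus took 13.4% and 10.7% of the coding counts, or 12.4% and 10.7% of the coding TPM. The proximal group was led by Lck-201 at 43.98 and 42.46 TPM, while Lck-208 stood at 0.75 and 5.04 TPM. The deposited TPM intervals of Lck-208, 0.0022 to 7.35 and 0.024 to 10.1, overlapped, so no difference between the libraries could be told for it. The division rests on few sequences, since 241 of the 41-base stretches of the gene were particular to the proximal and 124 to the distal transcripts. Stretches of 41 bases were used because each deposited effective length lay 40 bases below the transcript length. No 41-base stretch of Lck occurred in another gene.

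A transcript annotated with a retained intron, Lck-203, held much of the Lck level. Lck-203 is 568 bases long, of which 483 lie in exons of Lck-201 and 85 in introns, as a run of 22 bases (129556438 to 129556459) at its 5′ end and a run of 63 bases (129555476 to 129555538) at its 3′ end. The 60 bases around the 3′ end of exon 8 are shown because this is where the transcripts part, with exon 8 of Lck-201 in lower case and in capitals the intron for Lck-203 and exon 9 for Lck-201:
Lck-203: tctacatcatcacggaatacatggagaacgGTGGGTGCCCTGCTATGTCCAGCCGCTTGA
Lck-201: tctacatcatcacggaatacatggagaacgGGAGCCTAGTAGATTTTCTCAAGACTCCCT
Of the 528 stretches of 41 bases in Lck-203, 83 occurred in no other transcript of the gene, against 152 of 2145 in Lck-201 and 5 of 2034 in Lck-208.

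Lck-203 stood at 68.86 TPM in replicate 1 and 35.66 in replicate 2, from 595.66 and 342.94 expected counts. Its share of the gene's TPM was 50.50% and 35.54%, and that of Lck-201 was 32.25% and 42.32%. By TPM the leading transcript was therefore Lck-203 in replicate 1 and Lck-201 in replicate 2. By expected counts Lck-201 led in both libraries, with 61.5% and 66.5% of the gene's counts against 23.7% and 13.7% for Lck-203. The authors' deposited TPM interval of Lck-203 ran from 56.5 to 71.7 in replicate 1 and from 27.4 to 40.7 in replicate 2, without overlap. For Lck-201 the deposited intervals, 34.3 to 42.8 and 34.1 to 44.4 TPM, overlapped almost fully. The TPM of Lck-201 in replicate 1, 43.98, lay above its own interval, so these intervals are not centred on the TPM values given here. In replicate 2 the intervals of Lck-203 and Lck-201 overlapped, so their order by TPM was not settled there.

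**Figure D3:**
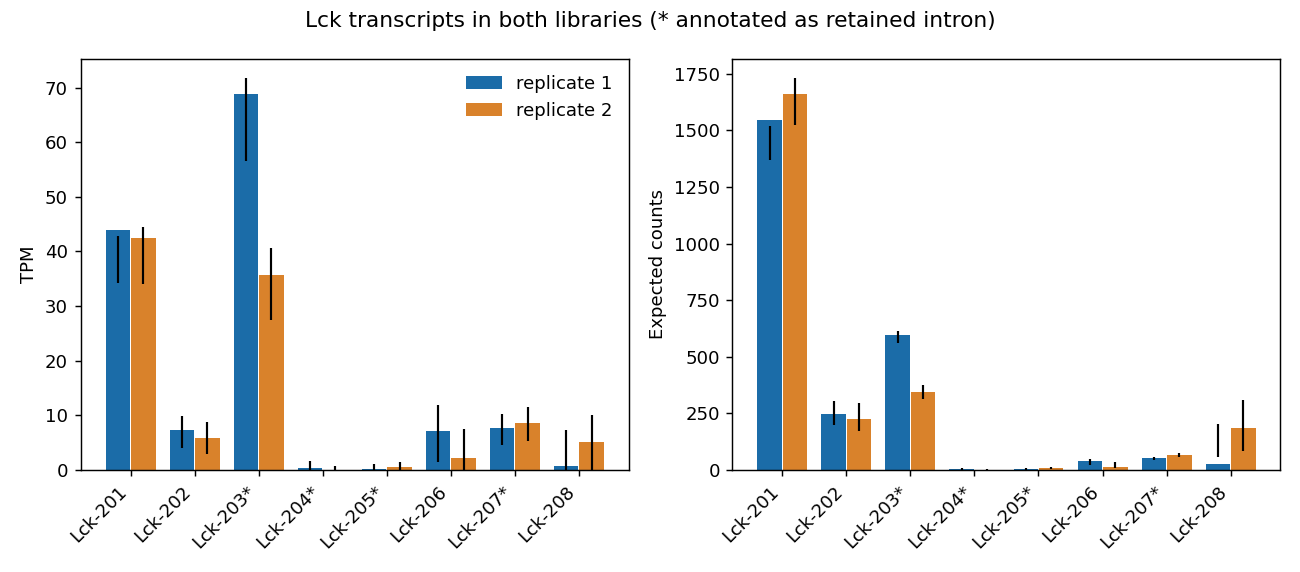
Lck transcripts in replicates 1 and 2, as TPM bars with the deposited TPM interval (left) and in expected counts with the posterior mean ± posterior SD (right), where * marks a retained intron. Lck-203 stood at 68.86 and 35.66 TPM in replicates 1 and 2, and Lck-201 at 43.98 and 42.46 TPM. The deposited interval of Lck-201 in replicate 1, 34.3 to 42.8 TPM, lies below the top of its bar.

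Retained-intron transcripts of Lck together took 26.0% and 16.6% of its counts and 56.6% and 44.6% of its TPM, since a short transcript weighs more per count in TPM. Over all genes such transcripts took 3.30% and 2.96% of the counts and 5.25% and 4.51% of the TPM. Among 4395 detected protein-coding genes with a retained-intron transcript the median share of TPM was 5.92% in both replicates, to be read against the TPM shares of Lck. In replicate 1, 185 of them (4.21%) had a TPM share at or above that of Lck, and in replicate 2, 311 (7.08%).

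The difference between the libraries in the level of Lck lay almost wholly in Lck-203. All transcripts of Lck summed to 136.35 and 100.33 TPM, a ratio of 1.36 of replicate 1 over replicate 2. Coding transcripts alone summed to 59.22 and 55.57 TPM, a ratio of 1.07, whereas the ratio of Lck-203 was 1.93 and its difference made up 92.2% of that of the gene. The effective length of the gene, weighted by its transcripts, was 1124 bases in replicate 1 and 1366 in replicate 2. On counts the difference was smaller, and the log2 ratio of replicate 2 over replicate 1 was -0.15 (adjusted p = 0.00182, two-sided exact binomial test with Benjamini-Hochberg adjustment over 15340 genes).

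That test compares the libraries with counting error only, and it called 30.6% of all genes tested, or 30.7% with DESeq2 size factors, 30.5% with library totals, 29.7% with posterior mean counts and 20.2% with no filter on low counts. Of the 6 members with at least 10 counts, 2 were called, Lck and Cd247, both lower in replicate 2. Over all genes 14.6% were called higher in replicate 2 and 15.9% lower. With a negative binomial exact test, which adds the spread between replicates, 389 genes (2.54%) were called, and the adjusted p of Lck and of Cd247 was 1. That spread was estimated from the same 2 libraries taken as 1 group, so their difference was set against itself. A gene with a typical difference is then unlikely to be called, so nothing is concluded from it for Lck or Cd247. Cd2, Cd3d, Cd3g and Lat gave adjusted p of 0.964, 0.329, 0.595 and 1 in the exact binomial test, which does not show that they were equal. Zap70, Cd3e, Themis and Bcl11b had too few counts to be tested.

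Among 7 Src family kinases, Lck was the highest on the sum of all transcripts. Blk, the member known for its B cell expression, stood at 45.32 and 39.88 TPM. Lyn, which phosphorylates the B cell receptor, stood at 38.04 and 39.28 TPM, and Fyn, which is shared by T cells and other cells, at 33.37 and 30.79. Yes1 was at 1.66 and 1.34 TPM, and Fgr and Src were below 1 TPM. Thus 5 of the 7 were detected, against 48.0% of all protein-coding genes. Lck held 53.4% and 47.3% of the TPM of these kinases.

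On protein-coding transcripts alone, an alternative chosen after the data were seen, Lck was still the highest but by less. It stood at 59.22 and 55.57 TPM (57.4 ± 2.58, SD, n = 2), above Blk at 45.32 and 39.88 (42.6 ± 3.85) in each library. Lyn then stood at 37.69 and 38.72 TPM. The share of Lck in the coding TPM of the 7 kinases was 33.3% in both libraries.

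**Figure D4:**
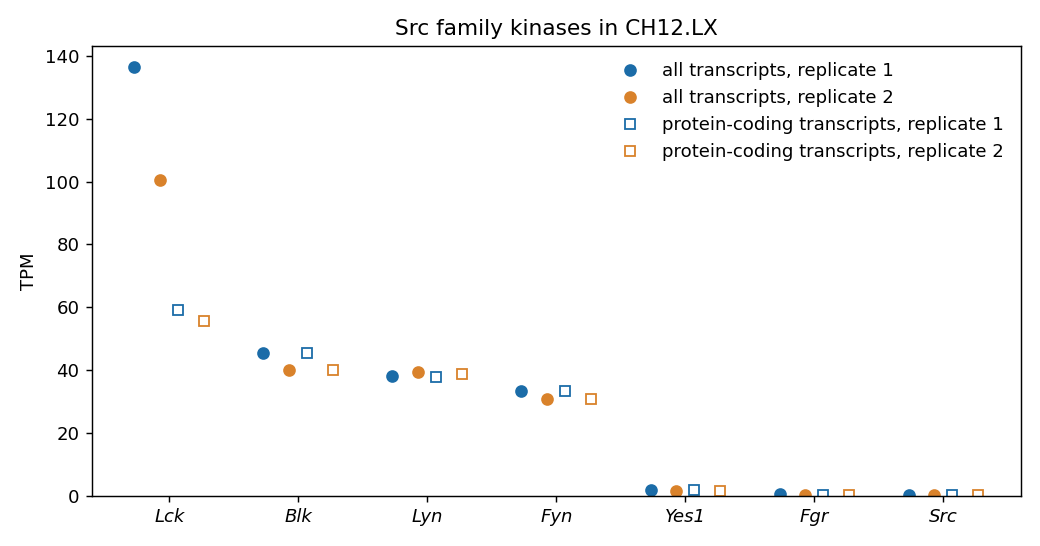
TPM of 7 Src family kinases in replicates 1 and 2, with all transcripts as filled circles and protein-coding transcripts alone as open squares. Lck is the highest on both measures, at 136.36 and 100.34 TPM with all transcripts and 59.22 and 55.57 with coding ones.

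Cd2, an adhesion and costimulatory receptor, was the other abundant member. It stood at 25.61 TPM in replicate 1 and 25.74 in replicate 2, from 460 and 511 counts (25.7 ± 0.0919 TPM, SD, n = 2). The Poisson 95% intervals, 23.3 to 28.1 and 23.6 to 28.1 TPM, overlapped almost fully, and 78.7% of protein-coding genes lay below its mean. In contrast to Lck, Cd2 rested on 1 transcript, with 94.99% and 95.08% of its TPM on its coding transcript of 1153 bases. Its other transcripts, both with a retained intron, held between 0.11 and 1.15 TPM. Cd2 lies on chromosome 3 from 101275899 to 101287939 on the minus strand, and its nearest protein-coding neighbours, Ptgfrn (0.03 and 0 TPM) and Igsf3 (0.54 and 0.66), were not detected.

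Cd48, the ligand of Cd2 in mouse, was also expressed, at 67.8 and 59.07 TPM. Of the 15 measured genes of the Cd2 family and its partners, 12 were detected, with a median of 22.2 TPM. Of all protein-coding genes 48.0% were detected. The highest was the receptor Slamf6 (95.23 and 93.19 TPM), followed by Cd48, the receptor Ly9 (57.71 and 50.47), and the proteins Cd2bp2 (53.39 and 38.41) and Pstpip1 (29.57 and 23.52), which bind the tail of Cd2. Cd2ap, a further binder of that tail, stood at 24.18 and 22.66 TPM. Slamf1 and Cd244a were below 1 TPM in both libraries. Sh2d1a, the adaptor that Slam receptors use in T cells, had 0 counts in both. Between the libraries 1 of 14 tested genes of the list was higher in replicate 2 and 5 were lower, against the 14.6% and 15.9% of all genes.

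The CD3 chains were uneven. Cd3g stood at 1.69 TPM in replicate 1 and 2.11 in replicate 2, from 20 and 29 counts (1.90 ± 0.297 TPM, SD, n = 2). Cd3d stood at 1.14 and 1.63 TPM, from 24 and 38 counts (1.385 ± 0.346, SD, n = 2). Both libraries lay above 1 TPM for each of these chains. Cd3e, without which the receptor complex does not reach the surface of T cells, had 1 and 2 counts, or 0.04 and 0.08 TPM. Cd3e was thus the lowest of the CD3 chains in both libraries, and its Poisson 95% intervals, 0.0011 to 0.244 and 0.0095 to 0.284 TPM, lay below those of Cd3g (1.03 to 2.61 and 1.41 to 3.03) and of Cd3d (0.732 to 1.70 and 1.15 to 2.23).

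The 3 CD3 genes neighbour each other on chromosome 9, Cd3g from 44969572 to 44980431 on the minus strand, Cd3d from 44981786 to 44987339 on the plus strand and Cd3e from 44998740 to 45009627 on the minus strand. Cd3g and Cd3d start away from each other with 1354 bases between them, and 11400 bases separate Cd3d from Cd3e. On the far side of Cd3g, 3971 bases away, the ubiquitin ligase gene Ube4a stood at 18.17 and 20.66 TPM, and beyond Cd3e the gene Mpzl2 at 0.32 and 0.27. The 2 detected CD3 genes were thus the pair that shares the short stretch between their starts. The 250 bases before each of these starts are shown for that reason, 5′ to 3′ on the gene's strand, from RefSeq on GRCm38.p6, with motif matches in capitals:
Cd3g, chr9:44980432-44980681: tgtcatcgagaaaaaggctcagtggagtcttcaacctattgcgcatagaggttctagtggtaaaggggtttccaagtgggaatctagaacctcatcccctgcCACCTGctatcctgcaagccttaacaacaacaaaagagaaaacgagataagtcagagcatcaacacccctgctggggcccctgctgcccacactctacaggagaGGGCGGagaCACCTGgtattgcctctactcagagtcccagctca
Cd3d, chr9:44981536-44981785: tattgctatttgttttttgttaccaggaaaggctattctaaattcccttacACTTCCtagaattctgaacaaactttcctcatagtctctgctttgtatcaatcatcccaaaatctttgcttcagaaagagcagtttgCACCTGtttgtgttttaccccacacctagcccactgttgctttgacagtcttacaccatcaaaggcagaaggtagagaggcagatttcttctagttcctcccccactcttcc
The Cd3g window held 2 E-box matches and 1 Sp1 match, with 51.6% GC and 4 CpG. The Cd3d window held 1 Ets and 1 E-box match, with 41.2% GC and 0 CpG. Neither held a Runx, octamer or TATA match, which says only that those letters are not in these windows. RefSeq promoter entries were matched for 9 of the 10 members, without Cd2.

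The few Cd3g counts were divided between coding transcripts, with 15.62 and 23.68 on Cd3g-201 and 4.38 and 5.32 on the short Cd3g-203. Cd3g-203 took 42.56% and 37.28% of the gene's TPM, with a deposited interval that reached from near 0 to 1.99 TPM in replicate 1. Of the 372 stretches of 41 bases in Cd3g-203, 37 occurred in no other transcript of the gene. That number is for GENCODE M21 sequence, where Cd3g-202 is 2539 bases long against a deposited length of 294. The number for the annotation that divided the reads was not measured.

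Cd247, the zeta chain, which carries most of the phosphorylation sites of the complex, gave values that depended on how reads were assigned. It stood at 1.72 TPM in replicate 1 and 0.91 in replicate 2, from 36.01 and 18.67 expected counts (1.315 ± 0.573 TPM, SD, n = 2). The log2 ratio of replicate 2 over replicate 1 was -1.04 (adjusted p = 0.0345, exact binomial test with Benjamini-Hochberg adjustment). With the deposited posterior mean counts it was -0.47 (adjusted p = 0.252), no longer past 0.05, and the mean level by posterior mean TPM was 2.16. Its posterior SD was 24.0% and 27.8% of the posterior mean count, while the other members with counts had a posterior SD of 0.

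Cd247 lies on chromosome 1 from 165788681 to 165877277 on the plus strand, and 3007 of its exon bases overlap exons of Pou2f1 on the other strand. Pou2f1, which encodes the octamer-binding factor Oct-1, had 1675.99 and 2301.76 counts, far more than Cd247. Only 43.3% of the 41-base stretches of Cd247 occurred in no other gene on either strand. In replicate 1 all 36.01 counts were on a coding transcript of 1317 bases, of which 59.4% of the exon bases lie in Pou2f1 exons. In replicate 2 that transcript held 5.28 counts and a noncoding one of 822 bases held 8.12. Whether the counting used strand is not given in the sources used here, so reads of the genes cannot be told apart and Cd247 is uncertain.

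Below the receptor, the adaptor and kinase of the T cell chain were at or near 0. Lat, the membrane adaptor, stood at 0.51 and 0.55 TPM from 10 and 12 counts (0.530 ± 0.0283 TPM, SD, n = 2). Lat lies on chromosome 7 from 126363824 to 126369570 on the minus strand, 489 bases from Spns1 on the same strand, which stood at 27.26 and 45.11 TPM. Zap70, the kinase that binds phosphorylated CD3 tails, had 3 and 2 counts, or 0.14 and 0.05 TPM, on chromosome 1 from 36761798 to 36782818 on the plus strand. The 3 counts of replicate 1 were on a transcript with a retained intron, and the 2 of replicate 2 on a coding one.

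Themis, a regulator of signalling in thymocytes, had 0 counts in both libraries, which at 3 counts allows up to 0.0655 and 0.0589 TPM. Bcl11b, the zinc finger factor of T lineage commitment, also had 0 counts, which allows up to 0.0410 and 0.0369 TPM. The deposited posterior mean TPM, which is above 0 also without a read, averaged 0.22 for Themis and 0.05 for Bcl11b. Themis lies on chromosome 10 from 28668360 to 28883818 on the plus strand, next to Ptprk and 2310057J18Rik, both at 0. Bcl11b lies on chromosome 12 from 107910403 to 108003602 on the minus strand, with Setd3 at 46.56 and 40.99 TPM on one side and 3110018I06Rik at 0 on the other.

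Several T cell genes were far below a gene with the matching role in B cells. In 11 pairs put together from textbook roles with the levels known, the B cell gene was higher in both libraries, a count that the choice of pairs can set. The pairs leave out cases that go the other way: Lck stood above Blk and Lyn, and Vav1 (77.63 and 67.78 TPM) above Vav2 (36.61 and 34.42). For the receptor tails, Cd79a stood at 262.16 and 313.94 TPM and Cd79b at 525 and 545.33. Syk, the kinase in the place of Zap70, stood at 132.44 and 136.07 TPM. Lat2 stood at 79.74 and 75.8 TPM, 156 and 138 times Lat.

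The pairs differed in how far apart they were. Blnk (200.58 and 208.88 TPM) lay 13.8 and 14.1 times above its T cell counterpart Lcp2, which encodes SLP-76 and was itself expressed at 14.56 and 14.78 TPM. Plcg2 (137.29 and 144.13 TPM) lay 10.6 and 11.1 times above Plcg1 (12.92 and 12.97). Themis2 (23.76 and 26.23 TPM) and Bcl11a (40.38 and 42.71) were expressed where Themis and Bcl11b had no read.

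**Figure D5:**
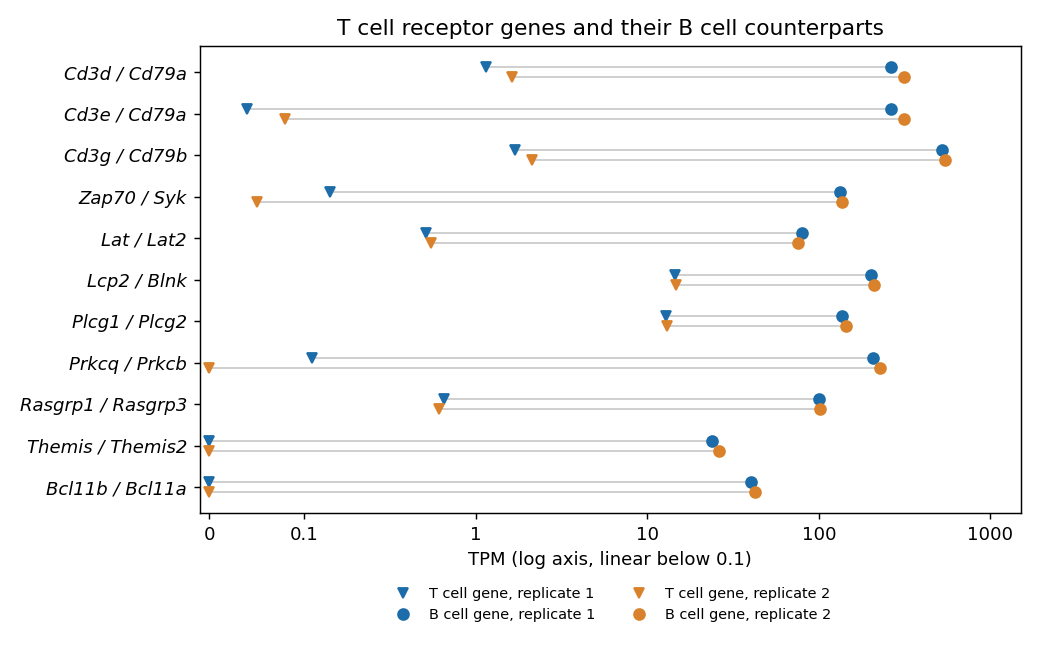
TPM of 11 T cell genes (triangles) and the B cell genes of matching role (circles) in replicates 1 and 2, on a log axis. Each circle lies to the right of its triangle, from 10.6 times for Plcg2 over Plcg1 in replicate 1 to pairs whose T cell gene is at 0.

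Of 30 measured signalling partners of the T cell receptor, 19 were detected, against 48.0% of all protein-coding genes, with a median of 9.07 TPM. The highest were Unc119, an activator of Src kinases (113.61 and 127.48 TPM), the phosphatase Ptprc (113.01 and 100.1), the kinase Csk, which inhibits Lck (83.15 and 86.14), and the exchange factor Vav1 (77.63 and 67.78). The coreceptors that hold Lck in T cells were low, with Cd4 at 0.86 and 1.18 TPM and Cd8a at 0.16 and 0.34. Cd28 was just detected at 1.7 and 1.32 TPM. Skap1 and Trat1 had 0 counts in both libraries, and Prkcq stood at 0.11 and 0. Of 25 tested partners 2 were higher in replicate 2 and 3 were lower, against the 14.6% and 15.9% of all genes.

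Of 16 transcription factors of the T lineage, 8 were detected, near the 48.0% of all protein-coding genes, with a median of 1.785 TPM. Detected at the highest levels were Ikzf1 (43.89 and 50.56 TPM), Runx3 (37.02 and 44.94), Tcf12 (26.26 and 30.22), Zbtb7b (24.96 and 20.35) and Ets1 (13.65 and 14.54), several of which B cells use as well. Tcf7 (3.43 and 4.02 TPM) and Lef1 (2.1 and 3.25) were detected at low levels. Gata3 stood at 0.39 and 0.47 TPM and was not detected. Between the libraries 6 of 12 tested factors were higher in replicate 2 and 0 were lower, against 14.6% and 15.9% of all genes. This was not particular to them. Of 9 tested B cell markers 8 were higher in replicate 2 and 0 lower, and of 14 B cell receptor counterparts 10 were higher and 1 lower. With library totals, 5 factors, 7 markers and 5 counterparts were higher. Under the negative binomial exact test, whose spread came from the same 2 libraries, 0 of the T lineage factors, 0 genes of the Cd2 list and 1 signalling partner were called.

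The T cell receptor genes themselves had few counts, at most 16 for a gene in a library. Trac, the alpha constant region, had 3 and 7 counts, or 0.49 and 1.03 TPM, Trbc1 had 1 and 0 counts, and Trbc2 had 0 in both. Of 237 measured T cell receptor gene entries, 36 had any count and 0 were detected, with 49.57 and 67.62 counts in all. Over all named genes 27.8% were detected. Some variable gene entries passed 1 TPM in 1 library, on few counts. Trav4-4-dv10 stood at 0.91 and 2.75 TPM from 4.77 and 16 counts, and Trbv13-2 at 1.42 and 0.37 TPM from 7 and 2. In TPM these were in the range of Cd3d and Cd3g in 1 library each.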

How the data were processed

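Polyadenylated RNA of CH12.LX was measured in 2 libraries of 1 group, each with a deposited gene and transcript table on mm10 with GENCODE M4, per the deposited notes. Which aligner, quantification tool and strand setting the authors used is not given in the sources used here. Per the file headers, the deposited expected counts are estimated reads that need not be whole, since the authors' processing split shared reads. The deposited TPM and FPKM values are corrected for length and depth, and the deposited isoform values are percent of a gene's expression, per the file headers. Posterior means and SDs are a second deposited estimate.

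Names and coordinates were those of GENCODE M21 (GRCm38, which is mm10) for 42462 of 43346 Ensembl entries and 101510 of 103639 transcripts. The 26248 entries with a number only name no gene and stayed out of tests. Promoter windows came from RefSeq (GRCm38.p6).

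Rounded expected counts of 15340 genes with at least 10 summed counts were compared by a two-sided exact binomial test against TMM effective sizes (edgeR 4.0.16, R 4.3.3). Benjamini-Hochberg adjustment was at 0.05. The test was first run on simulated data with counting error only, which cannot show how it behaves where libraries differ by more than that. Log2 ratios used a pseudocount of 0.5. Poisson intervals are at the 95% level, and intervals and bounds from 3 counts cover counting error only, since reads are not independent molecules. With 2 libraries, p-values measure the difference between these libraries. The spread in the negative binomial test was a coefficient of variation beyond counting error of 19.8%. It is 1 model value for all tested genes, estimated from these libraries as 1 group. Alternatives covered DESeq2 1.42.0 size factors, library totals, no filter, posterior means, other thresholds and each library alone.

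The members and the 10 gene lists (128 symbols, 124 measured) were chosen with earlier results of these data known. All members were named, up to 5 of the highest genes of each list, genes that show what was missing, transcripts with at least 10% of a member's TPM, and neighbouring or overlapping genes. Other genes named were chosen after their values were seen. No gene was named for likeness of pattern, since 2 libraries of 1 group allow none to be measured. A list's median is over the mean TPM of its measured members. A few genes and sequences are not reported here.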

Additional observations from a re-analysis of the deposited data

How the results depend on the processing

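Detection of the members ranged from 2 of 10 at 5 TPM to 6 at 0.5 TPM around the 4 reported, with 3 at 1 FPKM, 5 by posterior mean TPM, 4 without replicate 1 and 5 without replicate 2. Myeloid markers detected were 3, and 1 at 5 TPM. Of the 15340 genes tested between the libraries 4693 were called, and 389 with the negative binomial exact test, which adds a spread estimated from the same 2 libraries. Under that test neither Lck nor Cd247 remained past the threshold (adjusted p = 1), which decides nothing since the tested difference also set the spread. Over the other alternatives the adjusted p of Lck lay between 0.000207 and 0.00459. The sign of Cd2 turned with library totals, to a log2 ratio of -0.0094 from 0.01, both far from the threshold (adjusted p = 0.984 and 0.964). By posterior mean TPM the levels of Cd247 and Zap70 moved from 1.315 and 0.095 to 2.16 and 0.355 TPM, and the share of Cd3g on its leading transcript was 44.8% in place of 60.08%. The causes were not tested. Under 30 counts in a library, as for Cd3g or Lat, the Poisson interval limits what can be told. No paired analysis was possible because the libraries form 1 group.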

Other observations

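Of the transmembrane adaptors that resemble Lat, Lax1 and Sit1 were expressed in both libraries, at 11.59 and 11.44 TPM for Lax1 and at 9.71 and 7.39 for Sit1. Pag1, which anchors Csk at the membrane, stood at 0.1 and 0.08 TPM although Csk itself stood at 83.15 and 86.14, and Trat1 had 0 counts. Sh2d1b1, an adaptor of Slam receptors, stood at 10.56 and 10.17 TPM where Sh2d1a had 0 counts.

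Fyb, an adaptor of T cells and myeloid cells, differed most between the libraries among the listed signalling partners that were called, at 96.08 and 24.52 TPM from 839.9 and 248.59 expected counts. The log2 ratio was -1.89 (adjusted p = 2.96e-86, exact binomial test with Benjamini-Hochberg adjustment), and the posterior SD was 5.82% and 19.2% of the posterior mean count. The binomial test holds counting error only, took the expected counts as known and called 30.6% of all genes. Its p-value thus leaves out the error of assigning reads and the spread between replicates.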
